A study of Mus musculus with 24 samples.

Results

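The insulin-like growth factor (IGF) system genes Igf1, Igf1r, Igfbp2, Igfbp3, Igfbp4, Igfbp5, Igfbp6 and Igfbp7 were followed through adipogenic differentiation with and without epigallocatechin gallate (EGCG), the main catechin of green tea. They were chosen by symbol and matched to the Ensembl gene IDs of the expression tables, which gave 8 genes of the 37310 in the tables. RNA-seq had been done on stromal vascular fraction (SVF) cells, the mixed cells left after adipose tissue is digested and the fat cells are floated off, from 6-week-old C57BL/6 mice. The cells came from inguinal white adipose tissue (WAT) or interscapular brown adipose tissue (BAT), and all groups received the same adipogenic induction medium with insulin, dexamethasone and 3-isobutyl-methylxanthine for 4 days, followed by insulin and T3 for 4 more. EGCG, at a dose the labels do not give, or its solvent DMSO (control) was in the medium, and RNA was taken on day 4 (D4) or day 8 (D8). Thus 8 groups were compared: WAT D4 control, WAT D4 EGCG, WAT D8 control, WAT D8 EGCG, and the same 4 for BAT, with 3 libraries in each of them, or 24. Whether these came from separate isolations or animals is not in the labels, so p-values measure the spread between these libraries, which may be technical. A mixed primary culture limits these groups as a model of the adipocyte, since every value is an average over all cells in the dish.

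IGF1 is a secreted hormone that acts through the receptor tyrosine kinase IGF1R, and both IGF1 and the high insulin of induction media drive preadipocytes toward differentiation through this receptor and the related insulin receptor. In the tissue the amount of free hormone is set by the IGF binding proteins. These hold IGF away from the receptor or deliver it, and proteases that cleave them release it. White and brown preadipocytes make IGF1 and several of the binding proteins themselves.

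The tables follow the NCBIM37 (mm9) gene models. Igf1 lies at chr10:87321010-87399792 on the plus strand and Igf1r at chr7:75097713-75371484 on the plus strand. Among the binding proteins, Igfbp2 (chr1:72871077-72899048, plus) and Igfbp5 (chr1:72904506-72921458, minus) are neighbours whose 3′ ends face each other 5457 bases apart. Igfbp3 lies at chr11:7106089-7113926 (minus), Igfbp4 at chr11:98902558-98913969 (plus), Igfbp6 at chr15:101974793-101979942 (plus) and Igfbp7 at chr5:77778265-77837070 (minus). Igf1 overlaps Gm16176 on the other strand, and Igfbp7 overlaps Polr2b and AC141469.5 on the other strand, so their values are less certain because the use of strand in counting is not given in the sources used here. The length used for Igf1r, 4181 bases, is nearly all coding (4107 bases), whereas that of Igf1 is 7121 bases, so levels per length depend on the gene model.

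To set the neighbours Igfbp2 and Igfbp5 and the pair Igfbp3 and Igfbp4 beside each other, the 250 bases before their RefSeq start sites were read. The windows come from RefSeq on GRCm38.p6, where all 8 genes had an entry, and each was placed in NCBIM37 by an exact match. They are given 5′ to 3′ in the direction of the gene, and capitals mark matches, on either strand, to the letters of a short motif. Searched were the core promoter strings TATAAA and, for the box of that name, CCAAT. Also searched were the GC box, GGGCGG, the FOXO motif, GTAAACA, and the AP-1 motif, TGANTCA. The C/EBP motif was read as TTGCNNAA and the antioxidant response element as TGACNNNGC, and the palindromic glucocorticoid response element was searched too. Their NCBIM37 positions are chr1:72870804-72871053 (plus strand), chr1:72921440-72921689 (minus), chr11:7113927-7114176 (minus) and chr11:98902308-98902557 (plus).
Igfbp2: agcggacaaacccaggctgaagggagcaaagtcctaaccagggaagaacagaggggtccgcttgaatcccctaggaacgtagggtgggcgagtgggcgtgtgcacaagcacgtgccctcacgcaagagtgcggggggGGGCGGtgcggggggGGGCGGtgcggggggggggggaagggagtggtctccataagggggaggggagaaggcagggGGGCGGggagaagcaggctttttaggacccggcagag
Igfbp5: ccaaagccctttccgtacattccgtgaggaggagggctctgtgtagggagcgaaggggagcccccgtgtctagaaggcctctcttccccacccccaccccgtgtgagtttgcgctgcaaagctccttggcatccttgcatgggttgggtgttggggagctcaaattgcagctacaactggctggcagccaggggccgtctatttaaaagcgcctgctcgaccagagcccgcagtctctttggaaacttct
Igfbp3: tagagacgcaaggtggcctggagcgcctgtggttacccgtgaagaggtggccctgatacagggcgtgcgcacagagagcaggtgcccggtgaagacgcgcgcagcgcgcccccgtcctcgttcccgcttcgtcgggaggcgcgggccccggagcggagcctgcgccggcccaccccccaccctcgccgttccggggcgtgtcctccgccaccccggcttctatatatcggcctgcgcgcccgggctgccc
Igfbp4: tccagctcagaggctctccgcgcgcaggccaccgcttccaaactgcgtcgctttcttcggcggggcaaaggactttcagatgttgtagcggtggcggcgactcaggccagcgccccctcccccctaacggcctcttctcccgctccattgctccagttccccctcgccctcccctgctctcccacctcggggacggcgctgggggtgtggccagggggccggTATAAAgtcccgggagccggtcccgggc
The Igfbp2 window is the first of the 2 that RefSeq gives for this gene, and it held 3 GC boxes. The second, at chr1:72871711-72871960 and not shown, lies within the gene model and held no GC box but 1 AP-1 match, 39 bases before its start, a motif found in 6.75% of all windows. By comparison, the GC box occurred in 32.7% of the 32851 RefSeq windows of this length. The Igfbp4 window held 1 TATA box, 28 bases before the start, a sequence found in 12.4% of the windows. None of the letters searched occurred in the Igfbp3 or the Igfbp5 window, which says only that these strings are not there.

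Depth on genes was 39452696 to 52893848 reads for replicates 1 and 2, and 16392420 to 41675643 reads for replicate 3, whose libraries were deposited in a separately scaled table. In the library labelled WAT D8 EGCG replicate 3, 5 genes took 61.01% of the reads, against 3.64% to 10.48% in the other 23. Its FPKM (fragments per kilobase of gene, scaled to the reads of the library) were low for all 8 members beside the other libraries of its group, and they are given below as deposited and after median-ratio scaling, which divides each library by the median ratio of its genes to their mean. Tests used replicates 1 and 2 (n = 2 per group) with limma on log2(FPKM + 1) over 14095 genes, all 8 members included, and p-values were adjusted over all of these within a comparison. In a fit of all 24 libraries with a term for the table, 21 of the 128 results for single members lost their call. With the WAT D8 EGCG replicate 3 library left out of that fit, none did. Depot labels were checked by their markers. Hoxc10, a white depot gene, was at 5.62 to 12.5 FPKM in the WAT libraries and at most 0.121 in the BAT libraries, and Zic1, a brown depot gene, was at 3.57 to 11.1 in BAT and at most 0.163 in WAT. The brown fat genes Ucp1 and Cidea were under 1 FPKM in every library except those of BAT D8 control, where Ucp1 was at 4.199 to 6.97. The full lists separated the depots less cleanly. The 4 brown depot genes, with Lhx8, summed to 17.7 to 19.55 on WAT D4 control and 40.34 to 41.57 on BAT D4 control (replicates 1 and 2). The 4 white depot genes, Hoxc8, Hoxc9, Hoxc10 and Tcf21, summed to 9.128 to 10.03 on BAT D8 EGCG and 34.09 to 34.92 on WAT D8 EGCG.

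In the comparisons of EGCG with control, all members changed on D8 in both depots, and Igf1, Igf1r and Igfbp2 changed at each depot and day. On WAT D4, 4 of 8 members were called (2 higher, 2 lower), where 53.7% of all tested genes were (34.4% higher and 19.3% lower). On BAT D4, 6 of 8 were called (3 higher, 3 lower), against 48.5% of all genes (27.9% and 20.6%). On D8 all 8 were called in each depot, with 2 higher and 6 lower in both, against 63.6% of all genes in WAT (44.7% higher, 18.9% lower) and 72.6% in BAT (46.5% higher, 26.1% lower). The BAT D8 count was 7 with quantile normalization, without Igfbp7 (9995 of the 14095 tested genes). With both tables in the fit it was 6, without Igfbp6 and Igfbp7 (6723 of the tested genes). Changes of at least 2-fold were made by 2 members on WAT D4 (6.78% of all genes), 6 on WAT D8 (9.39%), 3 on BAT D4 (6.13%) and 6 on BAT D8 (17.9%). With both tables in the fit, 1 member, Igf1, was past 2-fold on BAT D4 (842 of the 14095 tested genes, against 864 in the main fit). The median log2 change of the members was -0.15 on WAT D4, -1.20 on WAT D8, 0.21 on BAT D4 and -1.12 on BAT D8, whereas that of all tested genes was 0.09, 0.17, 0.03 and 0.17. Median-ratio scaling brought those medians of all genes to -0.02, 0.01, 0.00 and 0.02, a shift of 0.11 on WAT D4, 0.16 on WAT D8 and 0.15 on BAT D8. With it the D8 changes of the members were lower by 0.16 to 0.20, the 8 calls in each depot held, and the share of all called genes that were higher went from 64.1% to 44.7% on WAT D4, from 70.3% to 51.3% on WAT D8 and from 64.0% to 51.8% on BAT D8. In these mixed cultures, fewer cells of a type and less RNA per cell cannot be told apart.

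**Figure D1:**
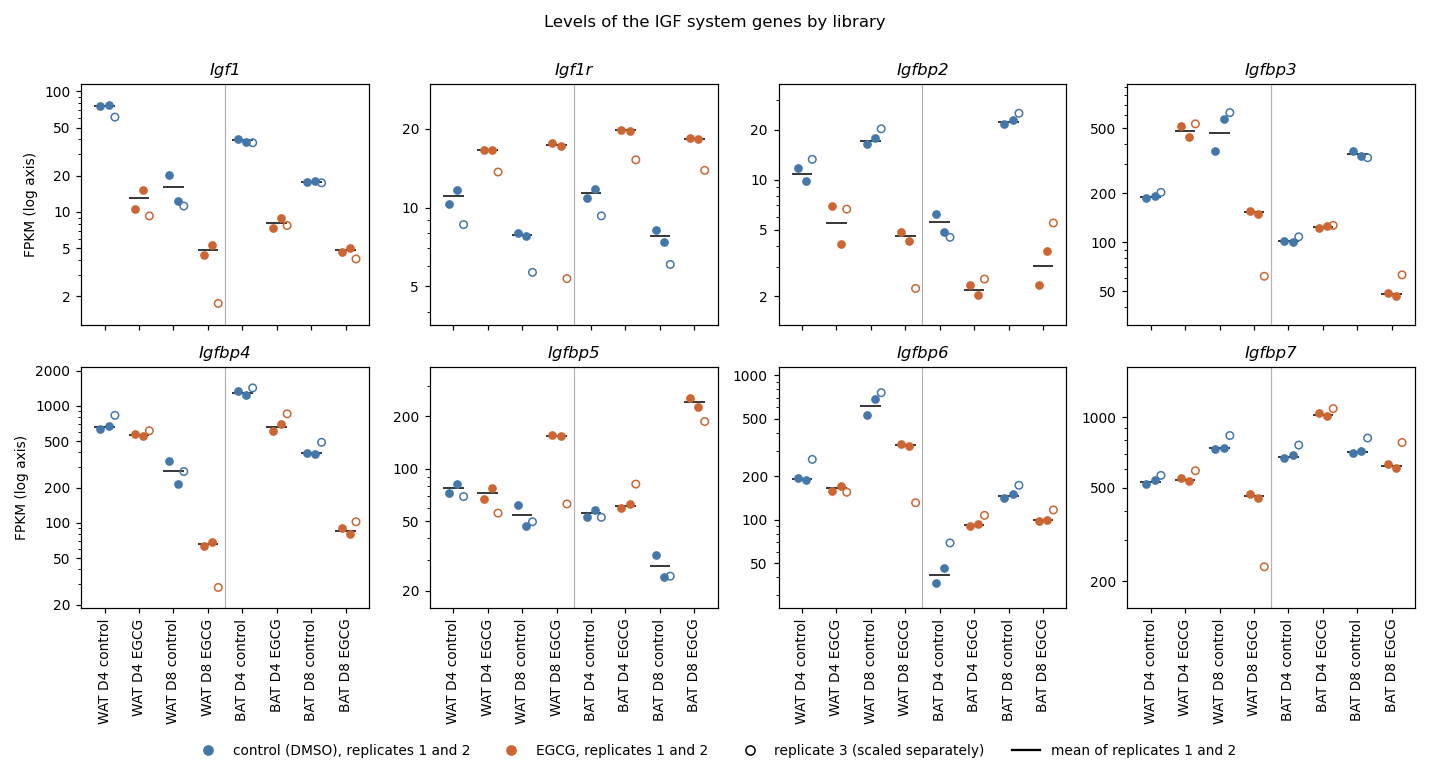
FPKM of the 8 genes in each of the 24 libraries on log axes, with controls in blue, EGCG in orange, replicates 1 and 2 filled, replicate 3 open and a line at the mean of replicates 1 and 2. Igf1 is lower and Igf1r higher in the EGCG libraries of replicates 1 and 2 at each depot and day, and the open orange circles of WAT D8 lie low in all 8 panels.

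Igf1, the ligand, fell with EGCG in all 4 comparisons. On WAT D4 it was at 74.7, 76.5 and 61.0 FPKM in control replicates 1, 2 and 3 and at 10.6, 15.3 and 9.28 with EGCG. On BAT D4 it was at 40.4, 38.3 and 37.4 in control and at 7.40, 8.93 and 7.73 with EGCG. The groups did not overlap on D4, and every EGCG library was under the lowest control. The log2 change was -2.47 ± 0.19 (SE, n = 2; adjusted p = 9.39e-07) in WAT, a 5.82-fold lower mean FPKM, and -2.14 ± 0.19 (adjusted p = 2.75e-06) in BAT, 4.82-fold lower. By D8 the controls had themselves come down, to 20.1, 12.3 and 11.2 FPKM in WAT and 17.7, 17.9 and 17.4 in BAT. The EGCG libraries were lower still, at 4.41, 5.33 and 1.75 in WAT (3.83 for the last after median-ratio scaling) and 4.63, 5.06 and 4.08 in BAT. The D8 changes were -1.51 ± 0.19 (adjusted p = 2.73e-05) and -1.69 ± 0.19 (adjusted p = 6.90e-06).

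The order of Igf1 ran from WAT D4 control (75.6 ± 1.3 FPKM, SD, n = 2) and BAT D4 control (39.3 ± 1.5) through the D8 controls to the EGCG groups, and the highest group mean was 15.6-fold over the lowest. WAT D8 control did not stand apart from BAT D8 control above it nor from WAT D4 EGCG below it, and the D8 EGCG groups overlapped each other. From D4 to D8 the gene fell in control cells, with log2 changes of -2.195 ± 0.19 in WAT (adjusted p = 1.47e-06) and -1.10 ± 0.19 in BAT (adjusted p = 0.000293). With EGCG the WAT change was -1.24 ± 0.19 (adjusted p = 0.000166). In BAT with EGCG it was -0.65 ± 0.19 (adjusted p = 0.0127), a call lost without BAT D8 EGCG replicate 1 (-0.59, adjusted p = 0.0673) or without BAT D4 EGCG replicate 2 (-0.53, adjusted p = 0.0911). BAT was below WAT on D4 in control cells by -0.93 ± 0.19 (adjusted p = 0.00170). The D4 difference between depots with EGCG, -0.59 ± 0.19 (adjusted p = 0.0235), was lost without BAT D4 EGCG replicate 1 (-0.47, adjusted p = 0.143), without WAT D4 EGCG replicate 2 (-0.35, adjusted p = 0.216), with untested low genes kept in (adjusted p = 0.0609) and with all 24 libraries (adjusted p = 0.128).

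Igf1r, the receptor, moved the other way and rose in all 4 comparisons. On D4 it was at 10.3, 11.7 and 8.61 FPKM in WAT control and at 16.5, 16.6 and 13.7 with EGCG. In BAT on the same day it was at 10.9, 11.8 and 9.29 in control and at 19.8, 19.6 and 15.2 with EGCG. On D8 it was at 7.99, 7.79 and 5.66 in WAT control against 17.6, 17.1 and 5.35 with EGCG. The last value, from the library in which few genes took most reads, was the only EGCG one within the control range, and it was 11.7 after median-ratio scaling, against 5.60 for the control of replicate 3. BAT D8 held 8.19, 7.37 and 6.06 in control and 18.4, 18.2 and 13.9 with EGCG, with no overlap. The log2 changes were 0.55 ± 0.06 (adjusted p = 1.96e-05) on WAT D4, 0.75 ± 0.06 (adjusted p = 1.50e-06) on BAT D4, 1.05 ± 0.06 (adjusted p = 5.83e-08) on WAT D8 and 1.14 ± 0.06 (adjusted p = 1.13e-08) on BAT D8. With median-ratio scaling the D8 changes were 0.86 and 0.96, under the 2-fold mark but called.

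The range of Igf1r was narrow, 2.53-fold from the lowest to the highest group mean, and all 4 EGCG groups stood above all 4 controls. Neither the 2 D4 controls nor the 2 D8 controls stood apart from each other. Control cells lost some of the transcript between D4 and D8, with log2 changes of -0.43 ± 0.06 in WAT (adjusted p = 8.24e-05) and -0.49 ± 0.06 in BAT (adjusted p = 2.19e-05). The WAT call was lost with all 24 libraries (adjusted p = 0.0792). In EGCG-treated cells the D8 minus D4 change was 0.07 ± 0.06 in WAT (adjusted p = 0.387) and -0.10 ± 0.06 in BAT (adjusted p = 0.199). The mean ratio of Igf1r to Igf1 FPKM was 0.146 in control and 1.32 with EGCG on WAT D4, and 0.288 and 2.43 on BAT D4. On D8 it was 0.516 in control and 3.60 with EGCG in WAT, and 0.437 and 3.79 in BAT.

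**Figure D2:**
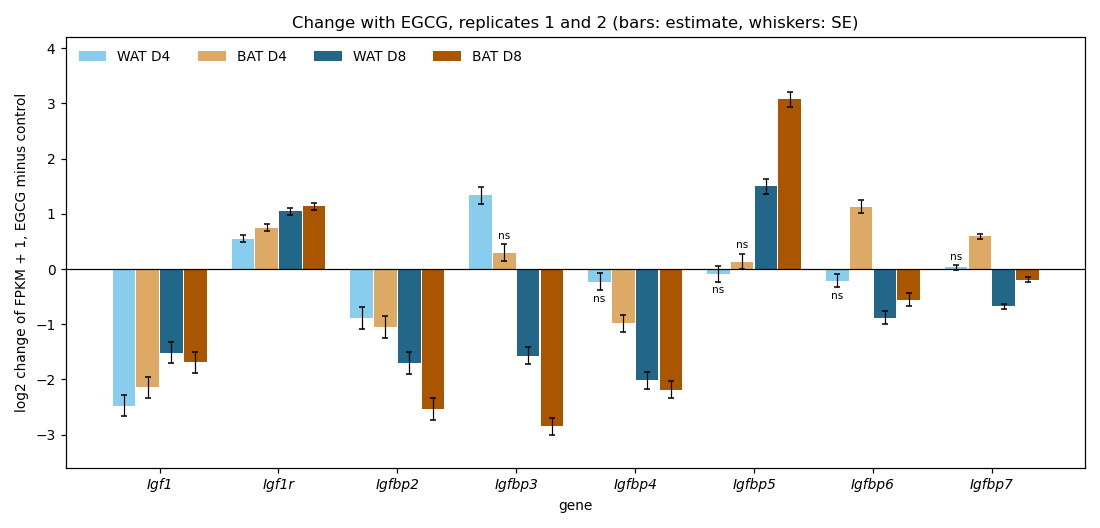
Log2 change of FPKM + 1 with EGCG for the 8 genes at each depot and day, fitted over replicates 1 and 2, with whiskers of 1 SE and ns where the adjusted p was 0.05 or more. The bars of Igf1, Igf1r and Igfbp2 keep 1 direction, whereas those of Igfbp3 point up on D4 (ns in BAT) and down on D8 and Igfbp5 rises on D8 (1.50 in WAT and 3.07 in BAT).

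Igfbp4 encodes a binding protein that mostly holds IGF back from its receptor, and it was the most abundant binding protein per length in both D4 control groups. On D8 it was among the most reduced members. In WAT D4 it was at 641, 679 and 831 FPKM in control and at 571, 555 and 614 with EGCG, a log2 change of -0.23 ± 0.15 that did not pass (adjusted p = 0.233). It was lower in each of the 3 EGCG libraries than in every control, and the fit of both tables without the WAT D8 EGCG replicate 3 library called it (-0.30, adjusted p = 0.0292). In BAT D4 it was at 1341, 1249.6 and 1426 in control and at 608, 703 and 856 with EGCG (-0.98 ± 0.15, adjusted p = 0.000254). The D8 drop was larger: WAT went from 335, 215 and 275 to 62.8, 68.7 and 28.0 FPKM, the last 61.4 after median-ratio scaling. BAT went from 396, 390 and 488 to 91.3, 80.6 and 102. Both D8 comparisons were free of overlap, with changes of -2.01 ± 0.15 in WAT (adjusted p = 4.47e-07) and -2.18 ± 0.15 in BAT (adjusted p = 1.08e-07), 4.18-fold and 4.57-fold lower in mean FPKM.

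Igfbp4 also fell with time in every series. The D8 minus D4 change was -1.29 ± 0.15 in WAT control (adjusted p = 1.89e-05) and -1.72 ± 0.15 in BAT control (adjusted p = 1.18e-06), and it was -3.08 ± 0.15 (adjusted p = 2.37e-08) and -2.92 ± 0.15 (adjusted p = 2.99e-08) with EGCG. Its group means spanned 19.7-fold, the widest of the 8 genes, from 1295 ± 65 FPKM in BAT D4 control to 65.8 ± 4.2 in WAT D8 EGCG. BAT exceeded WAT in control cells by 0.97 ± 0.15 on D4 (adjusted p = 0.000286) and by 0.55 ± 0.15 on D8 (adjusted p = 0.0105). The D8 call was lost without WAT D8 control replicate 2 (0.23, adjusted p = 0.0675) and with all 24 libraries (adjusted p = 0.0564).

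Igfbp3, the main carrier of IGF in the blood, changed direction with the day. On WAT D4 it rose with EGCG, from 187, 191 and 202 FPKM to 519, 443 and 533 (1.34 ± 0.15, adjusted p = 2.18e-05, 2.54-fold in mean FPKM). On BAT D4 it was at 102, 100.1 and 108 in control and at 122, 126 and 127 with EGCG, which did not pass (0.29 ± 0.15, adjusted p = 0.138) although the libraries did not overlap. On WAT D8 it fell from 361, 573 and 624 to 155, 150 and 61.7, the last 135 after median-ratio scaling. On BAT D8 it fell from 363, 337 and 330 to 48.8, 46.7 and 63.0. All D8 EGCG libraries lay under all D8 controls of their depot, and the changes were -1.57 ± 0.15 in WAT (adjusted p = 3.25e-06) and -2.85 ± 0.15 in BAT (adjusted p = 1.04e-08, 7.33-fold lower in mean FPKM). Without EGCG the gene rose from D4 to D8, by 1.26 ± 0.15 in WAT (adjusted p = 2.24e-05) and by 1.78 ± 0.15 in BAT (adjusted p = 8.25e-07). With EGCG it did the reverse, with -1.65 ± 0.15 in WAT (adjusted p = 2.80e-06) and -1.36 ± 0.15 in BAT (adjusted p = 1.37e-05).

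The highest group mean of Igfbp3, 481 ± 53 FPKM in WAT D4 EGCG, was 10.1-fold over the lowest, 47.8 ± 1.5 in BAT D8 EGCG. WAT D8 control, spread from 361 to 573 in replicates 1 and 2, overlapped both WAT D4 EGCG and BAT D8 control, which did not overlap each other. BAT was under WAT on D4 in control (-0.90 ± 0.15, adjusted p = 0.000471) and with EGCG (-1.94 ± 0.15, adjusted p = 1.66e-06), and on D8 with EGCG (-1.65 ± 0.15, adjusted p = 1.10e-05). In D8 control the difference was -0.38 ± 0.15 (adjusted p = 0.0566), and it was called without WAT D8 control replicate 1 (-0.71, adjusted p = 3.01e-05), with median-ratio scaling (-0.43, adjusted p = 0.0347), with voom (-0.38, adjusted p = 0.0292) and with both tables and median-ratio scaling (-0.61, adjusted p = 0.000265).

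Igfbp5, whose product also binds to extracellular matrix, was the binding protein that rose on D8. On D4 it was at 72.8, 82.1 and 69.4 FPKM in WAT control against 67.6, 77.7 and 55.8 with EGCG, and at 52.7, 58.4 and 52.8 in BAT control against 59.5, 62.6 and 81.8. Neither depot passed the test on D4 (-0.09 ± 0.14, adjusted p = 0.614 in WAT and 0.14 ± 0.14, adjusted p = 0.465 in BAT). On WAT D8 it was at 62.3, 47.1 and 49.8 in control and at 156, 153 and 63.0 with EGCG, the last 138 after median-ratio scaling, and on BAT D8 it was at 31.9, 23.95 and 24.3 in control and at 254, 227 and 187 with EGCG. Every EGCG library on D8 exceeded every control of its depot. The changes were 1.50 ± 0.14 in WAT (adjusted p = 2.57e-06, 2.83-fold in mean FPKM) and 3.07 ± 0.14 in BAT (adjusted p = 2.85e-09, 8.62-fold), the latter the largest change of any member in the 4 comparisons.

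Between D4 and D8, Igfbp5 rose with EGCG by 1.08 ± 0.14 in WAT (adjusted p = 4.48e-05) and by 1.96 ± 0.14 in BAT (adjusted p = 3.46e-07), and fell in BAT control (-0.98 ± 0.14, adjusted p = 6.73e-05). Its fall in WAT control, -0.51 ± 0.14 (adjusted p = 0.00882), lost its call without WAT D4 control replicate 2 (-0.42, adjusted p = 0.0681), without WAT D8 control replicate 2 (-0.31, adjusted p = 0.0960) and with all 24 libraries (adjusted p = 0.114). On D8 the order of the depots differed between treatments: BAT was under WAT in control cells (-0.94 ± 0.14, adjusted p = 0.000162) and over it with EGCG (0.63 ± 0.14, adjusted p = 0.00445). The D4 control difference, -0.47 ± 0.14 (adjusted p = 0.0147), was lost without BAT D4 control replicate 1 (-0.40, adjusted p = 0.0899), without WAT D4 control replicate 2 (-0.39, adjusted p = 0.10) and with all 24 libraries (adjusted p = 0.200).

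Igfbp2, the neighbour of Igfbp5 on chromosome 1, fell in all 4 comparisons, while Igfbp5 rose or did not pass. It was the least abundant binding protein throughout. On D4 it was at 11.8, 9.85 and 13.3 FPKM in WAT control and at 6.94, 4.10 and 6.66 with EGCG (-0.89 ± 0.20, adjusted p = 0.00282), and at 6.22, 4.88 and 4.51 in BAT control and at 2.32, 2.02 and 2.53 with EGCG (-1.04 ± 0.20, adjusted p = 0.00106). D8 control cells held more, 16.4, 17.9 and 20.2 in WAT and 21.5, 22.7 and 25.1 in BAT. Their EGCG counterparts held 4.84, 4.30 and 2.22 in WAT (4.86 for the last after median-ratio scaling) and 2.34, 3.75 and 5.50 in BAT, far under the controls. The D8 changes were -1.70 ± 0.20 (adjusted p = 1.46e-05) and -2.54 ± 0.20 (adjusted p = 2.70e-07), 3.75-fold and 7.27-fold lower in mean FPKM. BAT was under WAT on D4, by -0.86 ± 0.20 in control (adjusted p = 0.00359) and -1.01 ± 0.20 with EGCG (adjusted p = 0.00147). On D8 the depot difference was not called in control (0.35, adjusted p = 0.163), though it was with voom (0.37, adjusted p = 0.0222). With EGCG it was not called either (-0.48, adjusted p = 0.0771), though quantile normalization called it (-0.53, adjusted p = 0.0488). The rise from D4 to D8 was 1.83 ± 0.20 in BAT control (adjusted p = 6.27e-06). In WAT control it was 0.62 ± 0.20 (adjusted p = 0.0181), a call lost without WAT D4 control replicate 2 (0.50, adjusted p = 0.114) or WAT D8 control replicate 2 (0.56, adjusted p = 0.0806). With EGCG it was not called in either depot, at -0.19 ± 0.20 in WAT (adjusted p = 0.428) and 0.33 ± 0.20 in BAT (adjusted p = 0.179). Both calls depended on the libraries and the fit. The WAT change was called without WAT D4 EGCG replicate 2 (-0.51, adjusted p = 0.0436) and with all 24 libraries (-0.55, adjusted p = 0.0421). The BAT change was called without BAT D8 EGCG replicate 1 (0.59, adjusted p = 0.0452), with both tables and median-ratio scaling (0.50, adjusted p = 0.0106) and with both tables less the WAT D8 EGCG replicate 3 library (0.51, adjusted p = 0.0131).

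Igfbp6, whose product prefers IGF2, was the member with the clearest depot difference. It was lower in BAT than in WAT in all 4 comparisons, by -2.18 ± 0.12 on D4 control (adjusted p = 1.14e-07), -0.84 ± 0.12 on D4 EGCG (adjusted p = 0.000117), -2.04 ± 0.12 on D8 control (adjusted p = 8.06e-08) and -1.72 ± 0.12 on D8 EGCG (adjusted p = 8.89e-07). The D4 EGCG call was lost with all 24 libraries (-0.73, adjusted p = 0.0501). On D4 the control libraries held 194, 188 and 262 FPKM in WAT and 36.6, 46.6 and 68.9 in BAT. EGCG brought the depots nearer: WAT went to 158, 171 and 155 FPKM and BAT to 89.7, 93.8 and 107. The BAT rise was called (1.13 ± 0.12, adjusted p = 8.42e-06), and the WAT change was not (-0.21 ± 0.12, adjusted p = 0.142), although median-ratio scaling called it (-0.35, adjusted p = 0.0253). On D8 the gene fell in both depots, from 532, 689.6 and 758 to 333, 325 and 131 in WAT (287 for the last after median-ratio scaling) and from 141, 151 and 173 to 98.1, 100.2 and 117 in BAT. The changes were -0.88 ± 0.12 (adjusted p = 3.88e-05) and -0.56 ± 0.12 (adjusted p = 0.000986), and the BAT call was lost with all 24 libraries (adjusted p = 0.0764). Control cells gained the transcript between D4 and D8, by 1.66 ± 0.12 in WAT (adjusted p = 2.43e-07) and 1.80 ± 0.12 in BAT (adjusted p = 6.70e-08). EGCG-treated WAT cells gained 0.99 ± 0.12 (adjusted p = 1.74e-05), a call lost with all 24 libraries (adjusted p = 0.0713), and in BAT the change was 0.11 ± 0.12 (adjusted p = 0.439).

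Igfbp7 encodes a low-affinity relative of the other binding proteins, and its level varied least of all, 2.22-fold between the highest and lowest group means. On WAT D4 it was at 521, 539 and 565 FPKM in control and at 549, 535 and 591 with EGCG, groups that overlapped (0.03 ± 0.04, adjusted p = 0.555, and -0.11 with median-ratio scaling, adjusted p = 0.0515). On BAT D4 it rose from 669.8, 689 and 761 to 1044, 1008 and 1089.6 (0.59 ± 0.04, adjusted p = 5.13e-07). WAT D8 fell from 736, 740.0 and 836 to 470.4, 453 and 230.1, the last 504 after median-ratio scaling (-0.68 ± 0.04, adjusted p = 9.97e-08). BAT D8 held 706, 717 and 815 in control and 634, 610.2 and 780.2 with EGCG, so that replicate 3 with EGCG was above control replicates 1 and 2. That small change, -0.19 ± 0.04 (adjusted p = 0.00153), turned to 0.04 (adjusted p = 0.472) with quantile normalization and was not called with all 24 libraries (-0.15, adjusted p = 0.571). Over time the gene rose in WAT control (0.48 ± 0.04, adjusted p = 1.92e-06, and 0.0626 with all 24 libraries) and fell in BAT with EGCG (-0.72 ± 0.04, adjusted p = 7.55e-08). The WAT EGCG change of -0.23 ± 0.04 (adjusted p = 0.000637) was not called with quantile normalization (-0.04, adjusted p = 0.494). The BAT control change of 0.07 ± 0.04 (adjusted p = 0.188) was called with median-ratio scaling (0.22, adjusted p = 0.000676). BAT exceeded WAT on D4 in control (0.36 ± 0.04, adjusted p = 3.88e-05, and 0.212 with all 24 libraries), on D4 with EGCG (0.92 ± 0.04, adjusted p = 4.11e-08) and on D8 with EGCG (0.43 ± 0.04, adjusted p = 1.84e-05).

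Both the sum and the makeup of the 6 binding protein transcripts differed between groups. Their summed FPKM ranged from 1099 ± 43 (SD, n = 2) in BAT D8 EGCG to 2179 ± 43 in BAT D4 control. Igfbp4 gave 39.8% ± 0.6 of the sum in WAT D4 control and 59.4% ± 1.8 in BAT D4 control, and 5.64% ± 0.46 and 7.81% ± 0.38 in the D8 EGCG groups. Igfbp5 rose from 2.56% ± 0.70 on WAT D8 control to 13.2% ± 0.1 with EGCG, and from 1.69% ± 0.33 to 21.9% ± 0.9 in BAT. Igfbp7 was the largest part in every D8 group, from 34.2% ± 2.5 in WAT control to 56.6% ± 0.6 in BAT EGCG. Igfbp6 held 28.1% ± 2.9 on WAT D8 control and 28.2% ± 0.02 with EGCG, but 8.86% ± 0.50 and 9.03% ± 0.49 in BAT. These shares do not depend on the scaling of a library, and in replicate 3 of WAT D8 EGCG Igfbp4 held 5.43%, Igfbp5 12.2% and Igfbp7 44.6%, the last above the 39.3% and 39.8% of the other libraries of that group. Replicate 3 of BAT D8 EGCG held less Igfbp5, 14.9% against 22.5% and 21.3%, and the 3 libraries of WAT D8 control differed in Igfbp4, at 16.4%, 9.41% and 10.7%. With 2 libraries per group they were not tested.

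**Figure D3:**
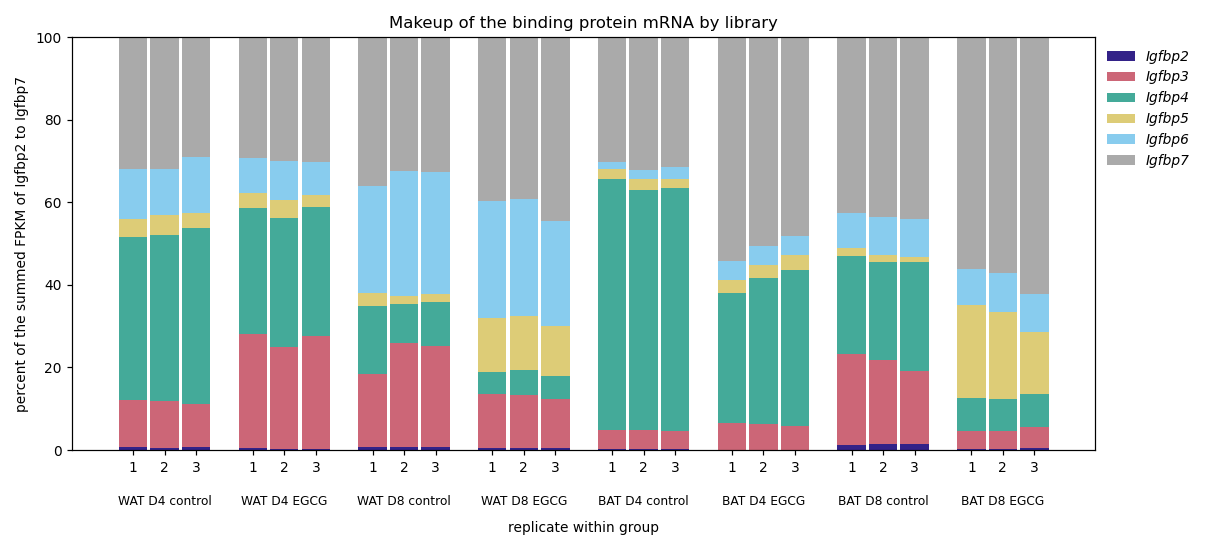
Share of each binding protein gene in the summed FPKM of Igfbp2 to Igfbp7, 1 stacked bar per library from 0 to 100 percent, with the 3 replicates of a group side by side. The Igfbp4 band shrinks to 5.64% in WAT D8 EGCG and 7.81% in BAT D8 EGCG and the Igfbp5 band widens to 13.2% and 21.9%, while replicate 3 of BAT D8 EGCG has a narrower Igfbp5 band, 14.9%.

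To ask whether the EGCG effect changed with time, the difference between its D8 and D4 effects was tested in each depot. All 8 members passed in WAT (49.4% of all genes) and 7 of 8 in BAT (55.4% of all genes), every one but Igf1. Igfbp3 had the largest shift downward, -2.91 ± 0.22 in WAT (adjusted p = 1.72e-06) and -3.14 ± 0.22 in BAT (adjusted p = 5.21e-07). Igfbp4 shifted by -1.78 ± 0.22 (adjusted p = 5.68e-05) and -1.20 ± 0.22 (adjusted p = 0.000663). Igfbp5 moved the opposite way, by 1.59 ± 0.20 (adjusted p = 7.06e-05) and 2.94 ± 0.20 (adjusted p = 4.74e-07). Igfbp6 and Igfbp7 shifted downward in both depots, by -0.66 and -0.71 in WAT and by -1.69 and -0.79 in BAT. In BAT the Igfbp7 call was lost with all 24 libraries (adjusted p = 0.0899). Igf1r shifted upward by 0.50 in WAT (adjusted p = 0.000702) and 0.39 in BAT (adjusted p = 0.00264), but both calls were lost with all 24 libraries (adjusted p = 0.853 and 0.364). Igf1 shifted by 0.96 ± 0.27 in WAT (adjusted p = 0.0122). That call was lost without WAT D4 EGCG replicate 1 (0.71, adjusted p = 0.0521) and with all 24 libraries (adjusted p = 0.0591), and in BAT the shift was 0.45 ± 0.27 (adjusted p = 0.178). Igfbp2 shifted by -1.50 ± 0.28 in BAT (adjusted p = 0.000842). In WAT its shift of -0.82 ± 0.28 (adjusted p = 0.0319) lost its call when any 1 of 5 of the 8 libraries was left out: WAT D4 EGCG replicate 1, WAT D4 control replicate 2, WAT D8 control replicate 2 or either WAT D8 EGCG replicate (-0.89 to -0.50, adjusted p = 0.0507 to 0.127). It was lost as well with a pseudocount of 0.1 (adjusted p = 0.0507) and with untested low genes kept in (adjusted p = 0.0791).

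**Figure D4:**
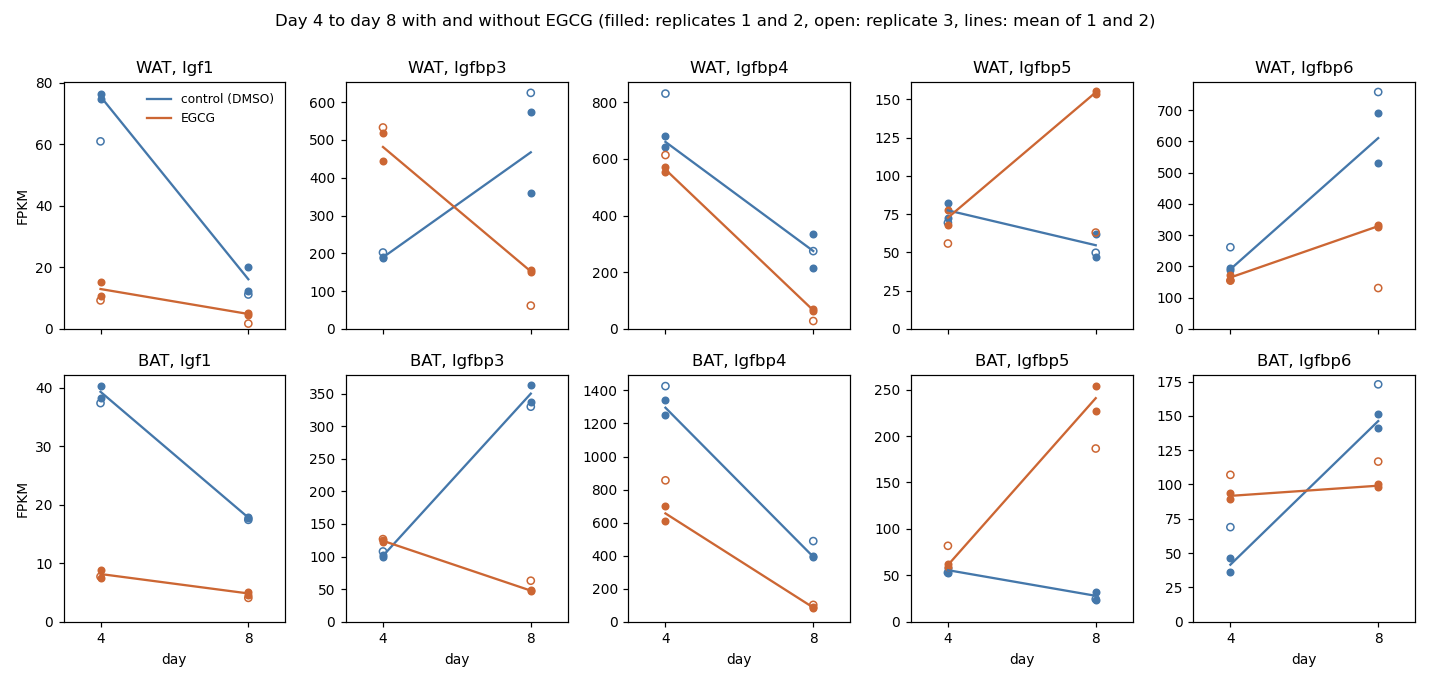
FPKM of Igf1, Igfbp3, Igfbp4, Igfbp5 and Igfbp6 on D4 and D8 in WAT (top) and BAT (bottom), with control in blue, EGCG in orange, filled points for replicates 1 and 2, open points for replicate 3 and lines through the mean of replicates 1 and 2. The control and EGCG lines of Igfbp3 cross, rising from 189 to 467 in WAT control and falling from 481 to 152 with EGCG, and those of Igfbp5 part on D8.

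Differences in the EGCG effect between depots were fewer. On D4, 4 of 8 members passed (28.1% of all genes): the BAT effect was lower than the WAT effect for Igfbp3 (-1.04 ± 0.22, adjusted p = 0.00452) and Igfbp4 (-0.75 ± 0.22, adjusted p = 0.0242), and higher for Igfbp6 (1.35 ± 0.16, adjusted p = 0.000151) and Igfbp7 (0.56 ± 0.06, adjusted p = 6.28e-05). With all 24 libraries only Igfbp6 of these 4 was called, and the others had adjusted p = 0.0746, 0.477 and 0.459. With the WAT D8 EGCG replicate 3 library left out of that fit, these 4 calls held. The Igf1r difference on D4, 0.20 ± 0.09, was not called (adjusted p = 0.111). It was called with median-ratio scaling (0.29, adjusted p = 0.0299), quantile normalization (0.25, adjusted p = 0.0492) and both tables with median-ratio scaling (0.21, adjusted p = 0.0192). That last fit also called Igfbp5 (0.53, adjusted p = 0.0349). The Igfbp4 call was also lost when any 1 of 5 of the 8 libraries was left out (WAT D4 control replicate 1, either WAT D4 EGCG replicate, BAT D4 control replicate 1 or BAT D4 EGCG replicate 1, with values of -0.78 to -0.65 and adjusted p = 0.0507 to 0.0884), with quantile normalization (adjusted p = 0.0556) and with untested low genes kept in (adjusted p = 0.0655). On D8, 4 of 8 passed (39.2% of all genes). Igfbp5 rose more in BAT (1.58 ± 0.20, adjusted p = 0.000101), Igfbp7 fell less in BAT (0.48 ± 0.06, adjusted p = 9.57e-05), and Igfbp3 fell more in BAT (-1.27 ± 0.22, adjusted p = 0.000790), the last not called with all 24 libraries (-0.53, adjusted p = 0.283). The Igfbp2 difference, -0.83 ± 0.28 (adjusted p = 0.0355), held only without WAT D8 control replicate 2 or BAT D8 EGCG replicate 2 among the 8 libraries left out in turn, and without any 1 of the other 6 it was -0.90 to -0.58 (adjusted p = 0.0578 to 0.142). With untested low genes kept in it had an adjusted p of 0.0871, and with all 24 libraries 0.459. Without WAT D8 control replicate 1, Igfbp4 (-0.49, adjusted p = 0.00999) and Igfbp6 (0.51, adjusted p = 0.0146) were called on D8 as well. For Igf1 no difference between depots was called, with 0.33 ± 0.27 on D4 (adjusted p = 0.395) and -0.17 ± 0.27 on D8 (adjusted p = 0.649).

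In the remaining comparisons the share of members called was above that of all genes except between depots on D8 control. The excess was less than a single member over time in BAT EGCG and between depots on D8 EGCG. Whether the members differed from all genes in these shares was not tested. Between D4 and D8, all 8 members were called in WAT control (61.0% of all genes), 6 in WAT EGCG (59.5%), 7 in BAT control (69.2%) and 5 in BAT EGCG (58.0%). Between depots, 7 were called on D4 control (55.8% of all genes), 6 on D4 EGCG (48.7%), 3 on D8 control (53.6%) and 4 on D8 EGCG (38.4%). On D4 control 1 member, Igfbp6, differed by at least 2-fold (632 of the 14095 tested genes). With median-ratio scaling 4 did (635 of the tested genes), with Igf1, Igfbp2 and Igfbp3 added, all lower in BAT. That scaling brought the median log2 difference of all tested genes on D4 control from 0.15 to 0.02. Without WAT D8 control replicate 1 the D8 control count between depots was 5, with Igf1 (0.50, adjusted p = 0.0283) and Igfbp3 added. With all 24 libraries the counts for WAT control over time and for the depots on D4 EGCG were 5 and 3. In that fit 4107 and 2250 of all 14095 tested genes were called, against 8591 and 6865 in the main fit.

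A list of 38 further genes of the IGF pathway was read in the same fit, and 29 of them were tested. On WAT D4, 9 of the 29 rose with EGCG and 12 fell. On WAT D8 13 rose and 12 fell, on BAT D4 9 rose and 12 fell, and on BAT D8 10 rose and 17 fell. Thus 72.4%, 86.2%, 72.4% and 93.1% of the tested list was called, beside 53.7%, 63.6%, 48.5% and 72.6% of all genes, with medians of -0.14, -0.02, -0.15 and -0.39. Among other ligands and receptors, Igf2, the fetal growth factor, fell on D4 (17.6 ± 0.7 to 8.27 ± 0.33 FPKM in WAT, -1.01 ± 0.09, adjusted p = 4.54e-06) and rose on D8 in both depots (0.73 and 0.49). Igf2r, which removes IGF2 by uptake into lysosomes, rose in all 4, from 21.1 ± 0.1 to 73.7 ± 2.1 FPKM on BAT D8 (1.75 ± 0.08, adjusted p = 3.18e-09). The insulin receptor gene Insr fell on BAT D4 (-0.61 ± 0.06), WAT D8 (-0.48 ± 0.06) and BAT D8 (-1.11 ± 0.06), and not on WAT D4 (0.02 ± 0.06, adjusted p = 0.792).

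Among the genes of proteases and their inhibitors, Pappa, which encodes the protease that cleaves IGFBP4, rose on D8 from 4.82 ± 0.61 to 11.4 ± 0.1 FPKM in WAT (1.09 ± 0.09, adjusted p = 1.19e-06) and from 6.87 ± 0.65 to 20.3 ± 1.4 in BAT (1.44 ± 0.09, adjusted p = 5.62e-08). On D4 it fell in WAT (-0.58 ± 0.09, adjusted p = 0.000302) and was not called in BAT (-0.06 ± 0.09, adjusted p = 0.628). Its inhibitors Stc1 and Stc2 rose on D4 in both depots, Stc2 by 1.53 ± 0.12 in WAT (adjusted p = 8.06e-07) and 1.33 ± 0.12 in BAT (adjusted p = 2.25e-06). Stc1 fell on D8, by -1.57 ± 0.12 in WAT (adjusted p = 5.15e-07) and -2.04 ± 0.12 in BAT (adjusted p = 2.62e-08). Adam12, another protease of binding proteins, fell on D4 in both depots and rose on D8 (0.48 ± 0.10 in WAT and 1.25 ± 0.10 in BAT), and Htra1 fell in all 4, most on BAT D8 (-1.29 ± 0.08, adjusted p = 5.11e-08).

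Downstream, the 14 tested genes of intracellular signalling went both ways with EGCG. On WAT D4 4 were called higher and 7 lower, on WAT D8 5 and 5, on BAT D4 3 and 6, and on BAT D8 4 and 8. Akt1 had a D8 mean of 70.3 FPKM in control and 113.9 with EGCG in WAT, and 70.18 and 135.9 in BAT. In replicate 3 Akt1 was at 77.07 and 50.75 in WAT and at 79.46 and 154.0 in BAT. The 50.75 came from the library in which few genes took most reads. Pik3r1, the regulatory subunit of phosphoinositide 3-kinase, fell in all 4 comparisons by -1.30 to -1.73. It went from 68.6 ± 5.6 to 20.0 ± 0.7 FPKM on BAT D8 (adjusted p = 2.50e-09). Irs3, an insulin receptor substrate, and Grb14, an adaptor that restrains the insulin receptor, fell in all 4 as well, Irs3 by -2.21 ± 0.10 on WAT D8 and Grb14 by -1.06 ± 0.11 on BAT D8. Foxo1, a transcription factor that the pathway inhibits, fell on D8 only (-0.82 ± 0.14 in WAT and -1.46 ± 0.14 in BAT), and on D4 it did not pass in either depot. In the growth hormone arm, which drives Igf1 transcription in liver and fat, the receptor gene Ghr fell in all 4, from 101 ± 6 to 22.5 ± 1.1 FPKM on WAT D8 (-2.12 ± 0.07, adjusted p = 5.09e-10) and from 134 ± 1 to 28.8 ± 0.4 on BAT D8 (-2.18 ± 0.07, adjusted p = 1.54e-10). Stat5a, which carries its signal, fell on BAT D4 (-0.44 ± 0.07) and on D8 (-0.32 ± 0.07 in WAT and -1.55 ± 0.07 in BAT). Socs2, a target and inhibitor of that signal, fell on D8 (-0.35 ± 0.06 in WAT and -1.03 ± 0.06 in BAT) and rose on BAT D4 (0.40 ± 0.06). Each of these calls given for a single gene on D4 and D8 held with median-ratio scaling except Stc2 on WAT D8, whose rise of 0.37 ± 0.12 (adjusted p = 0.0164) did not (0.18, adjusted p = 0.196).

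Markers of cell types moved with the same comparisons. The summed FPKM of 10 mature adipocyte genes was 3569 to 4138 on WAT D4 control and 425 to 457 with EGCG, and on WAT D8 it was 6355 to 7411 against 142 to 158 (replicates 1 and 2). In BAT it was 6493 to 7670 against 1299 to 1347 on D4 and 12600 to 12730 against 383 to 401 on D8. All 10 were called lower in each comparison. Of 10 progenitor and fibroblast genes, 9 were tested. On D4, 2 were called higher and 5 lower in WAT, and 1 higher and 4 lower in BAT, and on D8, 8 in WAT and 7 in BAT were called, all lower. Their sum on D8 was 5046 to 5659 in WAT control and 2499 to 2565 with EGCG, and 1841 to 1880 in BAT control and 1194 to 1215 with EGCG. The sum of 8 mural and smooth muscle genes was 195 to 225 on BAT D4 control and 825 to 988 with EGCG, and 501 to 570 on BAT D8 control and 1579 to 1747 with EGCG. On WAT D4 it was 249 to 274 in control and 174 to 177 with EGCG, and on WAT D8 416 to 550 and 815 to 828. On BAT D4 6 of these 8 genes were called higher and none lower, and on BAT D8 4 were higher and 2 lower. On WAT D4 1 was higher and 5 lower. On WAT D8 3 were higher and 2 lower, none by 2-fold, with a median log2 change of -0.045, so the higher sum there was not shared by the list. The 10 macrophage genes summed to 81.5 to 87.4 on WAT D4 control and 208 to 211 with EGCG, and to 192 to 204 and 410 to 452 in BAT. Of the 9 tested, 7 were called higher on WAT D4 and 6 on BAT D4, and none lower. Only 1 in each depot was called at 2-fold, with median log2 changes of 0.57 and 0.67, so most of the list rose less than the sum. On D8 they summed to 138 to 174 in WAT control and 57.4 to 60.9 with EGCG, and to 134 to 137 and 60.9 to 62.1 in BAT, and all 9 that were tested fell on D8 in both depots. The 10 endothelial genes summed to 20.4 to 35.2 in the control libraries and 39.8 to 53.4 in the EGCG libraries of replicates 1 and 2, and 4 mesothelial genes summed to at most 5.31. Of the 9 endothelial genes tested, 8 were called higher on WAT D4 and 7 on BAT D4, and none lower. On BAT D8 7 were higher and 1 lower. On WAT D8 4 were higher and 1 lower, none by 2-fold, with a median log2 change of 0.25. Of 10 skeletal muscle genes 6 were tested, and all 6 rose on WAT D4, where the list summed to 81.7 to 83.1 in control and 142 to 145 with EGCG. On WAT D8 2 of them rose and on BAT D8 2 fell. The part of these shifts in the changes of the IGF genes was not tested.

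The genes most alike each member in pattern were sought among 9737 protein-coding genes by Pearson's correlation of log2(FPKM + 1) over the 16 libraries of replicates 1 and 2, which share depots, days and treatments, so the values describe and do not test. Igf1 ran most like Dlk1 (r = 0.969), a preadipocyte gene that was at 51.9 FPKM on average on WAT D4 control and had its lowest group mean at 1.34, and next like Ermp1 (0.963). Igf1r ran most like Mkl2 (0.978) and Clstn1 (0.976), Igfbp2 like Chrdl1 (0.955) and Fxyd1 (0.946), and Igfbp3 like Tcp11l2 (0.943) and Plod1 (0.942). Net1 (0.961) and Adamts9 (0.952) were nearest to Igfbp4, Lats1 (0.978) and Frs2 (0.974) to Igfbp5, and Cd34 (0.947) and P2rx4 (0.946) to Igfbp6. For Igfbp7 the nearest were Sod3 (0.864) and Tyrobp (0.853). Among the members themselves, Igf1r and Igfbp2 ran opposite to each other (-0.938), Igf1 and Igfbp4 ran together (0.743), and Igfbp7 stayed between -0.460 and 0.405 with all the others.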

How the data were processed

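SVF cells of WAT and BAT were sequenced in 24 libraries, grouped by their titles. FPKM values were deposited by the authors in 2 tables of 37310 genes, made separately, with 16 libraries (replicates 1 and 2) in the first and 8 (replicate 3) in the second. The submitters' processing notes name FastQC 0.11.9, HISAT2 2.2.0, HTSeq 0.11 and build mm9. The annotation and the strand setting are not given in the sources used here, and all gene lengths equalled the longest transcript in GENCODE vM1. FPKM times length gave whole reads for 100% of the detected values with low and middle read counts (tolerance 0.01), so reads per library were recovered. The highest counts were not part of this check. Shares of reads from a few genes lower every other FPKM in a library.

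Genes at 1 FPKM or more in at least 2 of the 16 libraries were kept (14095). Values were fitted as log2(FPKM + 1), which understates changes of low genes, by limma 3.58.1 in R 4.3.3, each group having its own mean and the variance moderated along the mean-variance trend (8 residual and 11.4 total degrees of freedom). All tests were two-sided, with Benjamini-Hochberg adjustment over all tested genes in each of 16 comparisons, and calls were made at an adjusted p under 0.05. Replicate 3 gave values and directions only. The procedure was tested on simulated data. Read sampling alone did not account for the spread of replicates 1 and 2. Alternatives were median-ratio scaling, quantile normalization, a pseudocount of 0.1, no filter, voom on the recovered reads, a replicate block, both tables with a table term, and each library left out in turn. All 8 members were named, with pathway genes called at 2-fold or more and reaching a mean of 5 FPKM in the higher group in at least 1 EGCG comparison, plus Igf2, Igf2r and Insr, and the 2 genes most alike each member. Akt1 was named outside this rule. The members and lists were chosen with earlier results of these data known.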

Additional observations from a re-analysis of the deposited data

Results flagged for a closer look

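The effect of EGCG on a member differed between depots or between days, by a test of the difference itself in limma, in 23 of 32 results. Of all tested genes, 28.1% and 39.2% passed the same test between depots on D4 and D8, and 49.4% and 55.4% between days in WAT and BAT. Values are differences of log2 changes, and those that a single library or the scaling decided are named in the report.

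Between depots on D4, the effect in BAT minus that in WAT was -1.04 for Igfbp3, -0.75 for Igfbp4, 1.35 for Igfbp6 and 0.56 for Igfbp7. On D8 it was -0.83 for Igfbp2, -1.27 for Igfbp3, 1.58 for Igfbp5 and 0.48 for Igfbp7.

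Between days in WAT, the D8 effect minus the D4 effect was 0.96 for Igf1, 0.50 for Igf1r, -0.82 for Igfbp2, -2.91 for Igfbp3, -1.78 for Igfbp4, 1.59 for Igfbp5, -0.66 for Igfbp6 and -0.71 for Igfbp7. In BAT it was 0.39 for Igf1r, -1.50 for Igfbp2, -3.14 for Igfbp3, -1.20 for Igfbp4, 2.94 for Igfbp5, -1.69 for Igfbp6 and -0.79 for Igfbp7. The sign of the Igfbp3 effect in WAT turned between the days, from 1.34 on D4 to -1.57 on D8.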

How the results depend on the processing

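Counts of members called that moved by more than 1.5 times were those of D8 minus D4 in WAT control (8, and 5 in the fit of both tables), BAT minus WAT on D4 EGCG (6, and 3 in that fit), the depot difference of the EGCG effect on D4 (4, and 1) and on D8 (4, and 2), and BAT minus WAT on D8 control (3, and 5 with voom; 2 to 5 with each library left out in turn). Calls over all 14095 tested genes were fewer in the fit of both tables too. They went from 8591 to 4107 for WAT control over time and from 6865 to 2250 for the depots on D4 EGCG. For the depots on D8 control the calls over all tested genes went from 7555 to 7478 with voom. Counts over all genes for the depot differences of the EGCG effect in the fit of both tables are not given here. The 4 counts for EGCG against control stayed at 4, 8, 6 and 8 with each library left out. Of the called results for single members, Igfbp7 on BAT D8 alone turned sign, to 0.043 with quantile normalization, and was no longer called. Of 128 results for single members, calls were lost for 21 in the fit of both tables and for none with the WAT D8 EGCG replicate 3 library left out of it, an alternative chosen after seeing the data, nor for any in the fit of both tables with median-ratio scaling. Median-ratio scaling, voom and the replicate block lost none, no filter lost 4, quantile normalization 3 besides that of Igfbp7 on BAT D8, and the pseudocount 1. Leaving out libraries kept 604 of 640. The cause of these changes was not tested. Same-numbered libraries of replicates 1 and 2 did not deviate together (correlations of -0.079 to 0.081 over 28 pairs of groups). This cannot tell whether they shared an isolation or animal, and replicate 3 was not in this check. With the replicate block all 128 results were on the same side of the threshold, with 4, 8, 6 and 8 members called in the EGCG comparisons. With 2 libraries per group in the test, small changes can be missed.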
